A study of Homo sapiens with 12 samples.

Results

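ATP-binding cassette (ABC) genes were followed across 12 RNA-seq libraries of 3 human cancer cell lines. They were taken as every row of the deposited count table whose symbol is ABC, a subfamily letter from A to G and a number, which gave 46 of 57500 genes. Subfamily A held 12 of them, B 9, C 12, D 4, E 1, F 3 and G 5. By GENCODE 29 on GRCh38, 45 are protein coding, and ABCC13 is a transcribed unprocessed pseudogene. There are 4 groups with 3 biological replicates in each. SW480 is a colorectal cancer line from a primary tumour, and SW620 is a line from a metastatic site of the same patient; both were grown untreated in DMEM with 10% FBS. The ovarian cancer line PEO4 was kept in RPMI 1640 with 10% FBS, either as control or with 10 ng/mL recombinant human TGF-β for 6 days. Each group is 1 established line, so a difference between lines has no replication over patients.

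ABC proteins bind and hydrolyse ATP through a conserved nucleotide-binding domain. Those of subfamilies A, B, C, D and G have membrane-spanning domains, and most move lipids, sterols, peptides, bile salts, drug conjugates or other substrates across membranes. ABCB1 (P-glycoprotein), ABCC1 (MRP1) and ABCG2 (BCRP) are the members best known for drug efflux from cancer cells, ABCC8 and ABCC9 are sulfonylurea receptor subunits of potassium channels, and the proteins of subfamilies E and F have no membrane domain.

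Libraries held from 14531420 to 22028956 counts, so that 3 counts, used here as the floor of detection, correspond to 0.136 to 0.206 counts per 1000000 counts (CPM). Levels below are CPM on totals scaled by TMM factors. Markers of ovarian and Müllerian epithelium summed to 1380 to 1470 CPM in PEO4 control, against 65.7 to 90.1 CPM in SW480 and 128 to 161 CPM in SW620. The PEO4 sum came mostly from PAX8, WT1 and MSLN, with means of 556, 216 and 651 CPM in PEO4 control. The other markers of the list did not follow it. FOLR1 had means of 12.6 CPM in PEO4 control, 3.44 in SW480 and 16.4 in SW620. SOX17 was at 1.60, 2.56 and 2.99 CPM in the same order. Markers of intestinal epithelium summed to 35.5 to 56.7 CPM in SW480 and 258 to 399 CPM in SW620, against 0.751 to 3.34 CPM in PEO4 control. SW620 replicate 3 stood apart: genes seen in PEO4 and nearly lacking from the other SW libraries were present in it at 1.14% of their PEO4 level, over 37 such genes, against 0.204 to 0.725% over 7 to 13 genes in the other SW libraries. A PEO4 share of that size would give 31.3 counts of ABCA4 where SW620 replicate 3 has 21, and 13.1 counts of ABCA12 where it has 16. For ABCC2 it would give 0.0108% of the counts. Whether these counts were carried over was not tested, and ABCA4 and ABCA12 are given below with and without that library.

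Most ABC genes were detected in all lines. Of the 46 members, 38 were above the floor in every SW480 library, 35 in every SW620 library, 33 in every PEO4 control library and 34 in every TGF-β library. ABCB11, the bile salt export pump of hepatocytes, had 0 counts in all 12 libraries. The members together made up 1240 to 1580 CPM per library, with overlapping ranges between the groups. Subfamily C had the highest sum in each group, from 401 CPM in a PEO4 control library to 508 CPM in an SW620 library.

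Set per length, the soluble members ABCF1 and ABCF2 were among the 5 highest in every group, together with ABCC1, which exports glutathione and other conjugates. In SW480 the highest were ABCF2 (21.7 CPM per kb of merged exons), ABCF1 (17.1 CPM per kb), ABCC1 (17.0 CPM per kb) and ABCE1 (16.2 CPM per kb). In SW620 they were ABCF2 (28.3 CPM per kb), ABCE1 (23.5 CPM per kb), ABCF1 (22.7 CPM per kb) and ABCC1 (17.7 CPM per kb). ABCE1 splits ribosomes after termination, and ABCF1 takes part in translation initiation. In PEO4 control the order was ABCC1 (39.4 CPM per kb), ABCF1 (31.5 CPM per kb), ABCF2 (21.4 CPM per kb), ABCA4 (15.9 CPM per kb) and ABCF3 (10.8 CPM per kb). With TGF-β, ABCA4 left the 5 highest of PEO4 and ABCB8, a transporter of the inner mitochondrial membrane, entered at 9.48 CPM per kb. Exons annotated for ABCF2 are shared over 45.8% of their length with AC021097.2 on the same strand, so that reads of ABCF2 could be divided between them. The plot of levels per length shows 20 genes that reached 3 CPM per kb in any group.

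**Figure D1:**
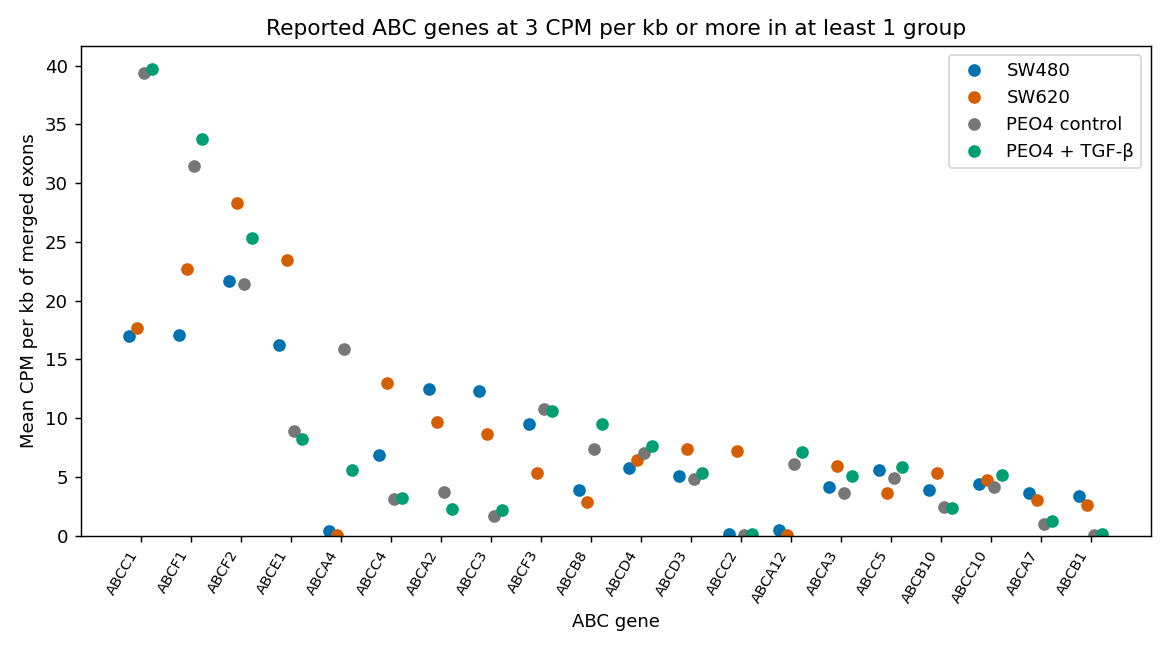
Mean CPM per kb of merged exons (vertical axis) of 20 ABC genes at 3 CPM per kb or more in at least 1 group; each point is the mean of 3 libraries of 1 group. ABCC1 and ABCF1 reach 39.4 and 31.5 CPM per kb in PEO4 control, and ABCA4, ABCA12, ABCC2 and ABCB1 lie near 0 in some groups only.

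**Figure D2:**
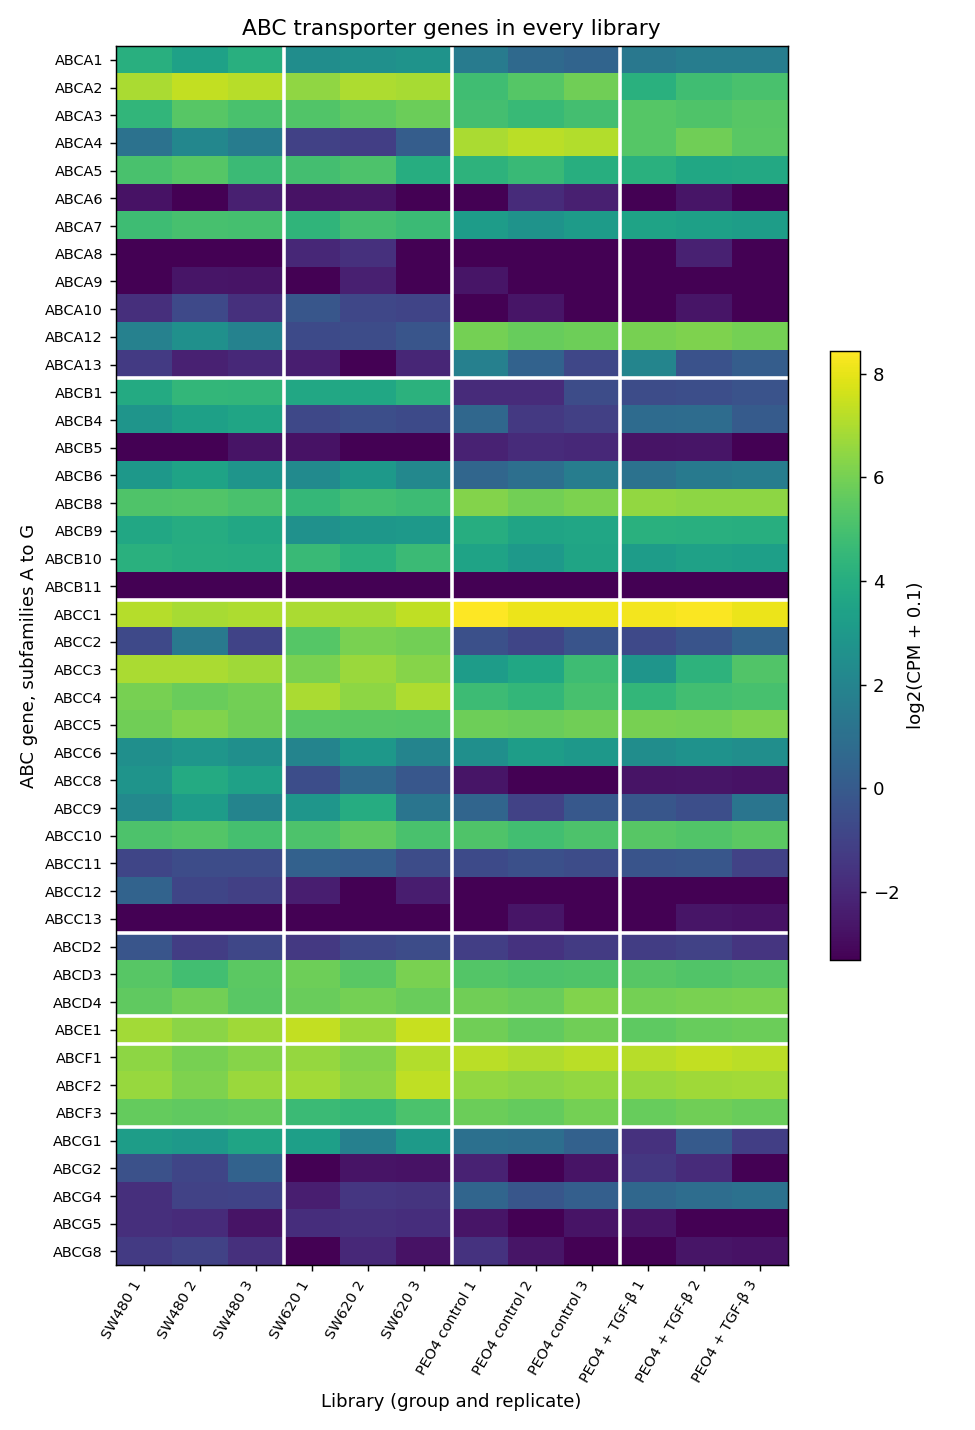
Level of 44 ABC genes (rows, by subfamily) in each of the 12 libraries (columns, by group), as log2(CPM + 0.1). ABCC2 is bright only in SW620, ABCA4 and ABCA12 are brightest in PEO4, and ABCB1 is bright in both SW lines.

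The first comparison set SW620 against SW480, the metastatic against the primary line of 1 patient. ABCC2 and ABCC4, both exporters of organic anions, were higher in SW620. ABCB4, ABCC8, ABCA12, ABCA4, ABCA1, ABCB9, ABCF3 and ABCC5 were lower. With edgeR's quasi-likelihood test and Benjamini-Hochberg adjustment over all genes tested, 10 of 33 members had an adjusted p under 0.05, which is 30.3% where 30.5% of all 20941 genes tested passed. By direction, 2 were higher and 8 lower, against 13.5% and 17.0% of all genes. The share of members called was thus close to that of all genes. Past a 2-fold change were 1 of the higher and 5 of the lower members, but the share of all genes past it was not counted. Median absolute log2 fold changes were 0.54 over the members tested and 0.53 over all genes tested. The median log2 fold change was -0.21 over the members tested and 0.03 over all genes tested. The other 13 members were too low to be tested.

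ABCC2 (MRP2), the apical export pump for glucuronide, glutathione and sulfate conjugates, differed most. It lies on chr10:99782640-99852594, plus strand, and its levels were 0.505, 2.56 and 0.414 CPM in the SW480 libraries and 40.0, 67.5 and 60.9 CPM in the SW620 libraries. All SW620 libraries lay far above all SW480 libraries, and SW480 replicate 2 lay above the other SW480 libraries. This was a difference of 5.65 ± 0.58 (SE) on the log2 scale, or 50.2-fold (edgeR's adjusted p = 0.000119), and 6.94 without SW480 replicate 2 (adjusted p = 7.19e-06). ABCC4 (MRP4), which exports cyclic nucleotides and prostaglandins, stood at 65.0, 53.5 and 60.4 CPM in SW480 and at 123, 86.5 and 127 CPM in SW620. The groups did not overlap, and the difference was smaller than for ABCC2 (log2 0.94 ± 0.18, adjusted p = 0.00359). ABCC1 and ABCC3, also of subfamily C and known for conjugate transport, did not pass, while ABCC5 was lower, as given below. ABCC1 was at 138, 119 and 129 CPM in SW480 and at 123, 118 and 160 CPM in SW620, with overlapping libraries (0.08 ± 0.17, adjusted p = 0.757). ABCC3 (MRP3), a basolateral carrier of glucuronides and bile salts, was at 125, 123 and 107 CPM in SW480 and at 66.7, 103 and 78.6 CPM in SW620. Its libraries did not overlap, but its log2 fold change of -0.48 ± 0.21 missed the threshold (adjusted p = 0.115).

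RefSeq promoters on GRCh38.p14 were matched for 35 of the 46 members. The stretches printed are the 250 bases before the RefSeq start, less bases annotated as exon, for the 2 members higher in SW620 and for ABCA12 and ABCB1, which differ most between PEO4 and the SW lines among members with a promoter and at least 5 CPM. Capitals mark a TATAAA in ABCC2 (chr10:99782390-99782639, plus strand), which ends 230 bases before the start, and a match to TGACNNNGC, the core of the antioxidant response element, read on the other strand in ABCC4 (chr13:95301476-95301701, minus strand), which ends 140 bases before the start. The ABCA12 (chr2:215138627-215138876, minus strand) and ABCB1 (chr7:87713324-87713545, minus strand) stretches hold none of the motifs searched. Only 1 start per member was used, so any other promoter of these genes was not searched. The motifs and CG counts given here describe that window alone.
ABCC2: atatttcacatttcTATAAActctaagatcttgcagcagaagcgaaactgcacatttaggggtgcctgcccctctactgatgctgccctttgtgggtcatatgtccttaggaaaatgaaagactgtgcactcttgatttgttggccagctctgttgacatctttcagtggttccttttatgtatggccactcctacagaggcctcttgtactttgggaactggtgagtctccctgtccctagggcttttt
ABCC4: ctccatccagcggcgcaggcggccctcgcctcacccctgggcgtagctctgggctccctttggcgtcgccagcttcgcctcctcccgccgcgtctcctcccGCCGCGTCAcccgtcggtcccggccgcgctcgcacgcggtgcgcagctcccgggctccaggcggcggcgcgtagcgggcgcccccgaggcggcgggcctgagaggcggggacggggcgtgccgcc
ABCA12: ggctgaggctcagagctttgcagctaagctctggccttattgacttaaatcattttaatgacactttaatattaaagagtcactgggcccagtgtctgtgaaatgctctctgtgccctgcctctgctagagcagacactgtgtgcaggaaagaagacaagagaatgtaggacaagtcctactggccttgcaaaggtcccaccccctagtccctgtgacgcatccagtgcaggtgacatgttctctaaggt
ABCB1: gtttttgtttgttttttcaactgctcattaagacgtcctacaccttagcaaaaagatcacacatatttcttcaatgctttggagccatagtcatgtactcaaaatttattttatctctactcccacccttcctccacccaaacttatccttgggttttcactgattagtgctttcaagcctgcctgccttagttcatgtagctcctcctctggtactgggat
The stretches of ABCC2, ABCA12 and ABCB1 each hold 1 CG dinucleotide, and the ABCC4 stretch holds 37. Searched on both strands of the full 250 bases, GGGCGG was found in 51.4% of the 35 member promoters and in 42.6% of all 35116 promoters. CCAAT was found in 17.1% of member promoters and 32.0% of all, TATAAA in 14.3% and 10.7%, TGACNNNGC in 17.1% and 10.9%, and GTCTAGAC, the SMAD palindrome, in 0 of 35 and 0.2%. The matches are letters in a window and were not tested for binding. The median CG count was 16 over the 35 member promoters and 11 over all promoters.

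Subfamily B had 2 lower members of 7 tested, where 17.0% of all genes tested were lower. ABCB4, the phosphatidylcholine floppase of the bile canaliculus, was at 6.86, 10.1 and 11.8 CPM in SW480 and at 0.482, 0.619 and 0.520 CPM in SW620. This was 17.2-fold lower in SW620 with no overlap (log2 -4.10 ± 0.34, edgeR's adjusted p = 3.6e-05). ABCB1 lies beside it on chromosome 7, on the same strand and 23.2 kb away, and did not pass. Its levels were 14.6, 22.3 and 21.1 CPM in SW480 and 13.3, 12.7 and 19.0 CPM in SW620 (log2 -0.34 ± 0.22, adjusted p = 0.295). The difference between these neighbours in their response was not itself tested. ABCB9, a lysosomal peptide transporter, was at 13.1, 15.6 and 13.3 CPM in SW480 and at 6.08, 7.33 and 7.79 CPM in SW620. All SW620 libraries lay lower (log2 -0.96 ± 0.20, adjusted p = 0.0061). Parts of the ABCB9 exons are overlapped on the opposite strand by AC026362.1 (20.7%), OGFOD2 (12.5%) and ARL6IP4 (12%), and whether counting used strand is not given in the sources used here, so the value for ABCB9 is uncertain. The mitochondrial members ABCB10 and ABCB8 did not pass: ABCB10 had a log2 fold change of 0.49 ± 0.18, and ABCB8, which did not overlap between the groups, of -0.42 ± 0.17.

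Subfamily A had 3 lower members of 8 tested and none higher, where 17.0% of all genes tested were lower and 13.5% higher. ABCA1, which hands cholesterol and phospholipid to apolipoprotein A-I, was at 17.2, 10.5 and 16.8 CPM in SW480 and at 5.26, 5.88 and 6.47 CPM in SW620. Its highest SW620 library was below its lowest SW480 library (log2 -1.30 ± 0.23, edgeR's adjusted p = 0.00276). ABCA4, the retinoid flippase of photoreceptors, and ABCA12, the glucosylceramide carrier of keratinocytes, were both low in the SW lines. ABCA4 was at 2.07, 4.21 and 3.00 CPM in SW480 and at 0.386, 0.361 and 0.992 CPM in SW620, with the highest SW620 value in replicate 3. Its log2 fold change was -2.38 ± 0.51 (adjusted p = 0.00697) and -2.99 without SW620 replicate 3 (adjusted p = 0.0018). ABCA12 was at 3.48, 5.97 and 3.63 CPM in SW480 and at 0.530, 0.568 and 0.756 CPM in SW620. Its log2 fold change was -2.78 ± 0.40 (adjusted p = 0.000779) and -2.93 without SW620 replicate 3 (adjusted p = 0.000953).

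Lower calls were also made in ABCC8 and ABCC5 of subfamily C and in ABCF3. ABCC8 (SUR1), a subunit of the ATP-sensitive potassium channel, was at 6.61, 14.5 and 10.6 CPM in SW480 and at 0.579, 1.5 and 0.803 CPM in SW620. It was 10.8-fold lower in SW620 with no overlap (log2 -3.43 ± 0.45, edgeR's adjusted p = 0.000498). ABCF3, a soluble member, was at 51.1, 47.5 and 49.8 CPM in SW480 and at 26.0, 22.7 and 34.5 CPM in SW620. The groups did not overlap (log2 -0.81 ± 0.17, adjusted p = 0.00609), and without SW620 replicate 1 the call was lost. ABCC5 (MRP5), an exporter of cyclic nucleotides, was at 59.8, 73.0 and 58.3 CPM in SW480 and at 43.0, 41.6 and 40.3 CPM in SW620. The difference was the smallest of the 10 called (log2 -0.59 ± 0.16, adjusted p = 0.0229), and leaving out SW620 replicate 1 or any of the SW480 libraries, scaling by library totals or using no filter ended the call.

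The remaining tested members did not pass, among them all 3 of subfamily D and ABCE1. ABCE1 was at 112, 84.3 and 108 CPM in SW480 and at 165, 101 and 175 CPM in SW620 (log2 0.56 ± 0.22, edgeR's adjusted p = 0.086). Replicate 2 was the lowest library of ABCE1 in both lines, and the same held for ABCF1, ABCF2 and ABCD3. Without SW620 replicate 2, 19 members passed, 8 higher and 11 lower, where 33.3% of all genes passed, and ABCE1, ABCF1, ABCF2, ABCD3 and ABCB10 were among those gained. Of all tested members, 12 did not overlap between the lines, where 42.7% of all genes did not. ABCG2 was under the filter, with 44 counts over the SW480 libraries and 2 over the SW620 libraries. The ratio of its levels was 23.8 (95% exact interval 6.2 to 202, counting error only), and it was at 0.656, 0.455 and 1.19 CPM in SW480. ABCG2 passed with no filter, with all 12 libraries in 1 model, and when SW480 replicate 2 or any of the SW620 libraries was left out. Scaling moved the split between directions: 6 higher and 8 lower were called with upper-quartile factors, and 7 and 7 with library totals, where 32.9% and 33.1% of all genes were called.

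**Figure D3:**
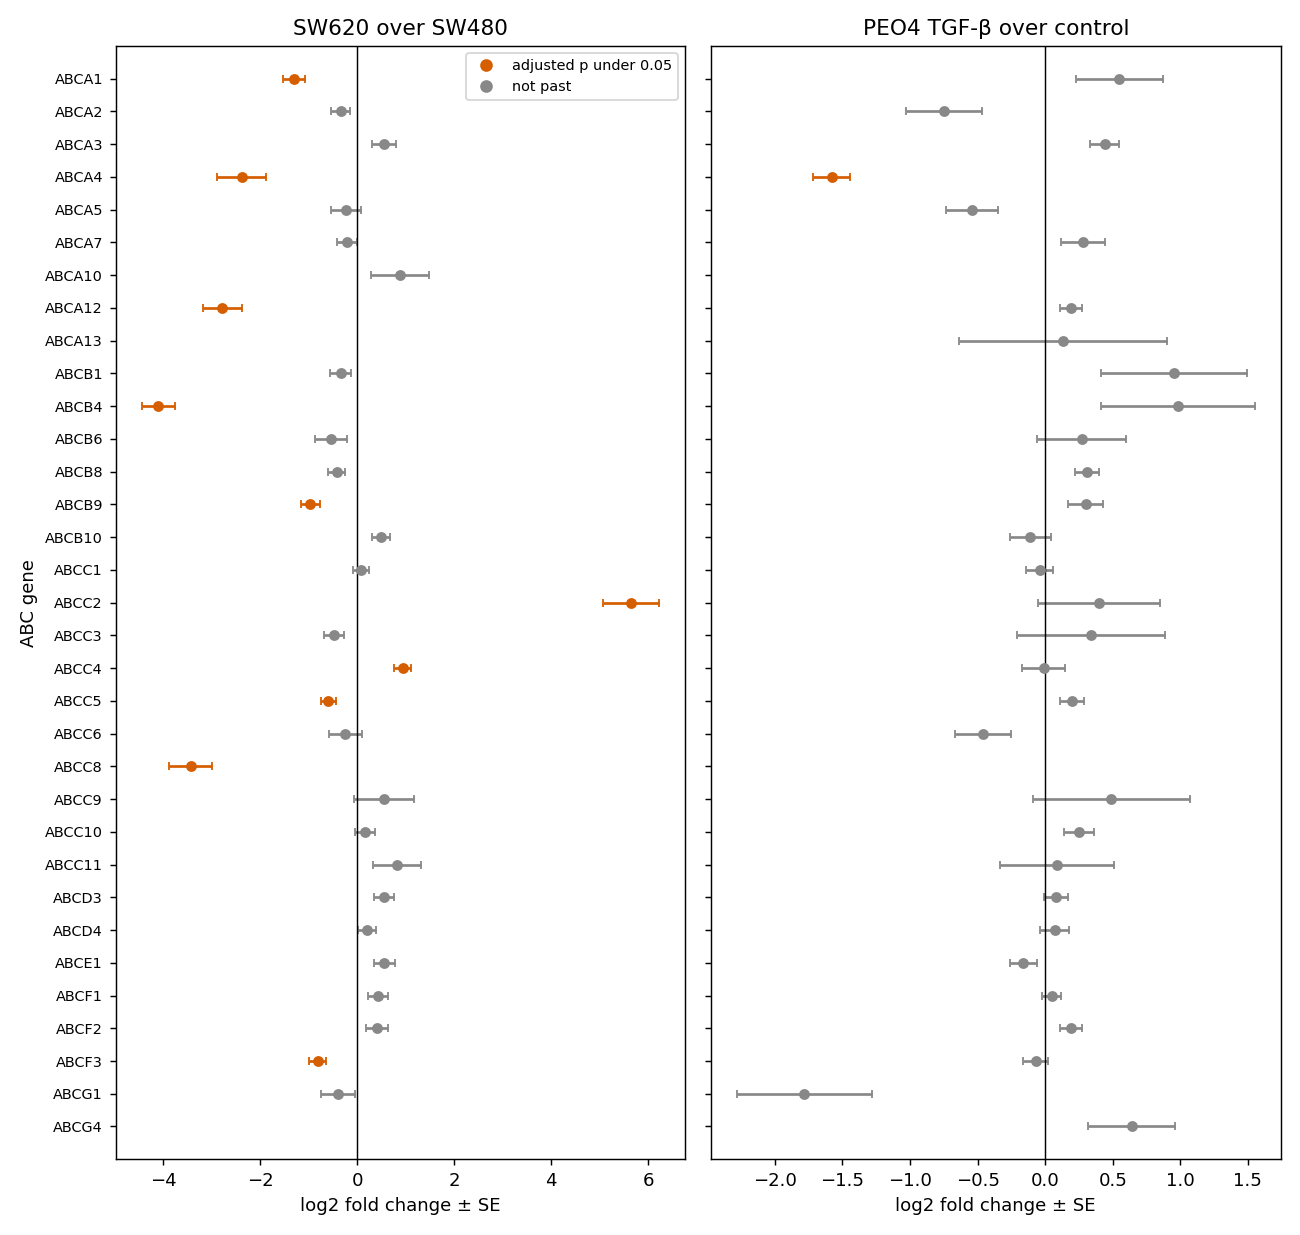
Log2 fold change with its SE (horizontal axis, edgeR) of ABC genes tested in SW620 over SW480 (left) and in PEO4 with TGF-β over control (right), with 3 libraries a group; orange points passed an adjusted p of 0.05. ABCC2 at 5.65 and ABCB4 at -4.10 stand farthest from 0 on the left, and ABCA4 at -1.58 is the orange point on the right; the horizontal scales differ.

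Known transcriptional regulators of ABC genes also differed between SW620 and SW480, with 3 higher and 5 lower of 15 tested from a list of 17, where 13.5% of all genes were higher and 17.0% lower. HNF4A, a transcription factor of liver and gut epithelium, was higher in SW620 by 3.36 ± 0.22 on the log2 scale. It stood at 15, 19.7 and 19.2 CPM in SW480 and at 185, 137 and 222 CPM in SW620. PPARG, a nuclear receptor of fat and gut cells, was higher by 0.70 ± 0.16. Lower were the nuclear receptors PPARD (-2.67 ± 0.19), PPARA (-1.80 ± 0.16), NR1H2 (-1.25 ± 0.20) and RXRA (-0.71 ± 0.18) and the xenobiotic sensor AHR (-0.69 ± 0.16). NR1H2 is the oxysterol receptor LXRβ, which drives ABCA1 and ABCG1 with RXR. Of these 2 targets ABCA1 was lower in SW620, and ABCG1 did not pass (-0.40 ± 0.35, edgeR's adjusted p = 0.452). The part of the listed regulators in the ABC differences was not tested. The list's median was 0 where that of all genes tested was 0.03. Among 18 partner proteins of ABC transporters, 17 were tested, 1 was higher and 3 were lower, against the same shares of all genes. The scaffold PDZK1 was higher (1.96 ± 0.39), while APOE, an acceptor of cellular cholesterol (-2.82 ± 0.29), and the lysosomal cholesterol carriers NPC2 (-2.42 ± 0.29) and NPC1 (-0.78 ± 0.18) were lower. TAP1 and TAP2, the ABC peptide transporters of antigen presentation, did not pass, and CFTR was too low to be tested. Intestinal markers moved with this contrast: VIL1, CDH17 and LGR5 were higher in SW620, CDX2 did not pass, and KRT20 was not tested. Leukocyte and fibroblast markers summed to 1.83 to 15.3 and 7.14 to 14.5 CPM in SW620, against 1.76 to 2.37 and 1.88 to 2.22 CPM in SW480. Endothelial markers summed to 4.68 to 7.84 CPM in SW620 and 2.49 to 2.78 CPM in SW480. Of the ovarian markers, WT1 (2.38 ± 0.21), MSLN (1.34 ± 0.16) and FOLR1 (2.26 ± 0.53) were higher in SW620. The part of these markers in the ABC differences was not tested.

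The second comparison set PEO4 with TGF-β against PEO4 control. ABCA4 fell and was the only member called: 1 of 33 tested, or 3.03%, where 2.26% of all 19064 genes tested passed, 1.27% higher and 0.991% lower. ABCA4 was at 124, 149 and 135 CPM in control and at 40.7, 58.4 and 42.8 CPM with TGF-β. Every treated library lay below every control library, and the mean went from 136 ± 12.5 to 47.3 ± 9.63 CPM (SD, n = 3 each). On the log2 scale ABCA4 fell by 1.58 ± 0.14 (edgeR's adjusted p = 0.00145), and the call held under each of the 15 alternatives run, from -1.72 to -1.47. Libraries of 11 members did not overlap between the groups, where 19.9% of all genes did not. Of the members tested, 22 had a positive log2 fold change, and the median was 0.19 against -0.02 over all genes.

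ABCA3, ABCB8 and ABCG1 had the smallest adjusted p after ABCA4 and did not pass. ABCA3, which loads surfactant lipids into lamellar bodies, was at 30.6, 24.3 and 29.9 CPM in control and at 39.9, 36.3 and 41.9 CPM with TGF-β. Its libraries did not overlap (log2 0.44 ± 0.11, edgeR's adjusted p = 0.0813; past the threshold with DESeq2 and in the authors' deposited table). ABCG1, which moves sterols to high-density lipoprotein, was at 1.91, 1.83 and 1.15 CPM in control and at 0.222, 0.901 and 0.350 CPM with TGF-β. Here too all treated libraries lay below the controls (log2 -1.78 ± 0.50, adjusted p = 0.114; past the threshold with DESeq2 and in the authors' deposited table). ABCB8 was at 76.4, 61.7 and 68.9 CPM in control and at 93.2, 86.3 and 86.0 CPM with TGF-β, with no overlap (log2 0.31 ± 0.09, adjusted p = 0.106), and it passed without control replicate 1. With no filter, and with a block for the replicate number, ABCA3, ABCG1 and ABCB8 all passed. In edgeR's order ABCA5, ABCA2, ABCB9, ABCF2 and ABCA12 followed, with adjusted p from 0.208 to 0.283. Of these ABCA12, high in PEO4, was at 62.9, 51.6 and 56.7 CPM in control and at 66.1, 71.4 and 64.0 CPM with TGF-β (log2 0.19 ± 0.08, adjusted p = 0.283).

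The drug efflux genes did not pass in PEO4. ABCC1, the most abundant member per length there, was at 347, 274 and 273 CPM in control and at 303, 330 and 269 CPM with TGF-β. The groups overlapped, with -0.04 ± 0.10 on the log2 scale (edgeR's adjusted p = 0.894). ABCC3 was at 8.96, 12.6 and 27.3 CPM in control and at 7, 19.2 and 37.5 CPM with TGF-β (0.34 ± 0.55, adjusted p = 0.805), a spread within each group larger than the difference between them. ABCB1 and ABCG2 were near the floor: ABCB1 was at 0.173, 0.171 and 0.573 CPM in control and at 0.555, 0.620 and 0.699 CPM with TGF-β (0.95 ± 0.54, adjusted p = 0.424). ABCG2 was at 0.116, 0 and 0.0521 CPM in control and at 0.278, 0.169 and 0 CPM with TGF-β, and was not tested. ABCC2 was at 0.636, 0.457 and 0.730 CPM in control and at 0.500, 0.732 and 1.25 CPM with TGF-β (0.40 ± 0.45, adjusted p = 0.703). For ABCA1 the levels were 2.89, 1.54 and 1.30 CPM and 2.55, 3.04 and 3.05 CPM (0.55 ± 0.32, adjusted p = 0.432).

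Of the regulators, 1 of 14 tested rose with TGF-β (1.27% of all genes did), PPARD (log2 0.61 ± 0.13, edgeR's adjusted p = 0.0431), from 37.5, 28.0 and 29.8 CPM to 55.6, 44.8 and 49.6 CPM. Of the partners, 1 of 17 tested rose, moesin (MSN), which ties membrane proteins to actin (0.56 ± 0.12, adjusted p = 0.0462). The ovarian marker sum moved with the treatment, from 1380 to 1470 CPM in control to 1090 to 1190 CPM with TGF-β. WT1 and MSLN fell, and PAX8, FOLR1 and SOX17 did not pass. The part of that shift in the fall of ABCA4 was not tested, and in bulk RNA fewer cells with a transcript and less of it per cell cannot be told apart.

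**Figure D4:**
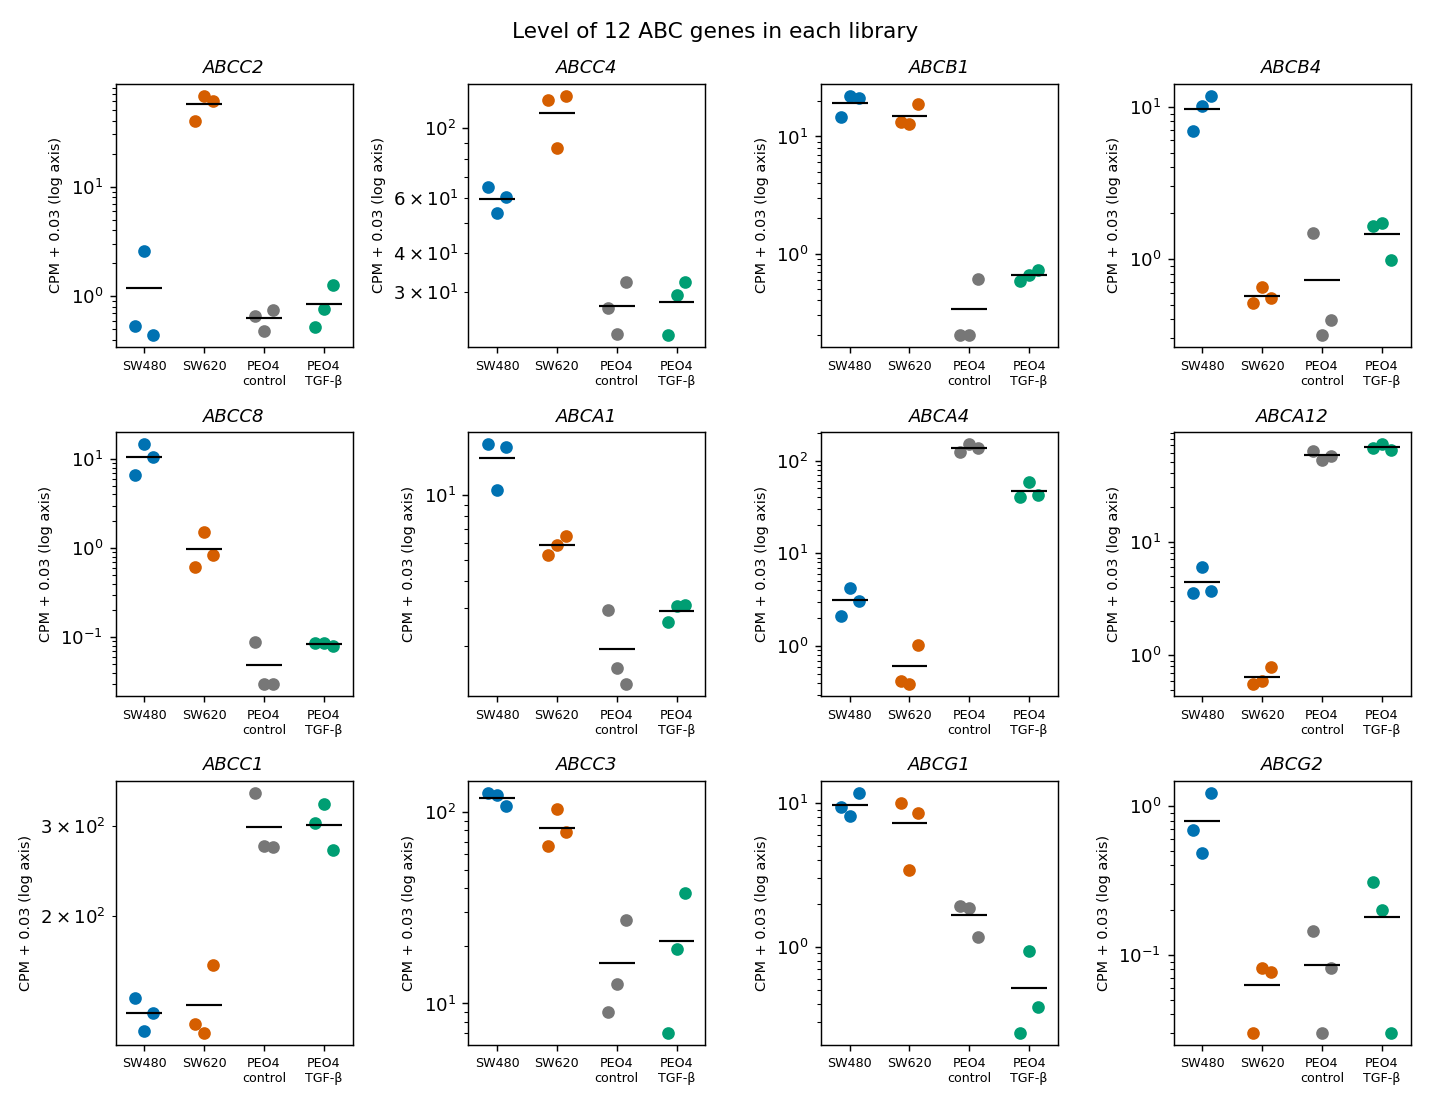
CPM + 0.03 on a log axis of 12 ABC genes in each library; points are libraries, bars are means of 3, and each panel has its own vertical range. ABCC2 reaches 40.0 CPM only in SW620, ABCB4 and ABCC8 are highest in SW480, and ABCA4 lies between 124 and 149 CPM in PEO4 control and between 40.7 and 58.4 CPM with TGF-β.

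PEO4 control was also set against the mean of the SW lines, to place the levels. Tissue, patient, line and medium differ together here and cannot be told apart, and the submitters' design does not name this comparison. Of 36 members tested, 24 passed, or 66.7%, where 58.0% of all 22936 genes did. In PEO4, 8 members were higher and 16 lower, where 28.9% of all genes were higher and 29.1% lower. The median log2 fold change was -0.63 over the members and -0.08 over all genes. With library totals alone these medians were -0.92 and -0.36. Libraries of 19 members did not overlap between PEO4 control and the SW lines, where 43.5% of all genes did not.

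Members higher in PEO4 were led by ABCA4 and ABCA12. ABCA4 at 124 to 149 CPM compared with at most 4.21 CPM in any SW library (log2 6.65 ± 0.24, edgeR's adjusted p = 1.09e-09; 6.96 without SW620 replicate 3). ABCA12 at 51.6 to 62.9 CPM compared with at most 5.97 CPM (5.10 ± 0.19, adjusted p = 1.27e-09), and its value was 5.19 without SW620 replicate 3. Next were ABCG4, a relative of ABCG1 found mainly in brain (2.03 ± 0.45), ABCC1 (1.18 ± 0.14) and ABCB8 (1.16 ± 0.13). ABCG4 was low everywhere, at 0.799 to 1.33 CPM in PEO4 control. ABCF1, ABCF3 and ABCB9 were higher by less than 2-fold, and the ABCB9 call (0.41 ± 0.16, adjusted p = 0.0452) was lost under 10 of 18 alternatives, among them leaving out SW480 replicate 1 or 3, SW620 replicate 1 or any PEO4 control library.

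Among the 16 lower members, ABCB1 and ABCC3 show the contrast best. ABCB1 ran from 12.7 to 22.3 CPM over the 6 SW libraries and was at most 0.573 CPM in PEO4 control (log2 -5.74 ± 0.37, edgeR's adjusted p = 6.48e-08; -6.57 without PEO4 control replicate 3). ABCC3 ran from 66.7 to 125 CPM in the SW libraries and from 8.96 to 27.3 CPM in PEO4 control (-2.61 ± 0.32, adjusted p = 2.03e-05; -3.19 without PEO4 control replicate 3). ABCC8 had 1 count over the PEO4 control libraries against 592 over SW480 and 58 over SW620, ratios of 564 (95% exact interval 101 to 22300) and 51.1 (8.82 to 2050). Its fitted log2 fold change of -7 ± 0.75 moved to -8.95 without PEO4 control replicate 1 and to -6.23 with limma-voom.

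ABCC9 (SUR2), the other sulfonylurea receptor, ran from 2.27 to 15.4 CPM in the SW libraries and from 0.399 to 1.33 CPM in PEO4 control (log2 -3.03 ± 0.64, edgeR's adjusted p = 0.00137). KCNJ8, a pore subunit that pairs with it, was lower in PEO4 as well (-3.01 ± 0.47). KCNJ11, the other pore subunit among the partners listed, did not pass (0.13 ± 0.19, edgeR's adjusted p = 0.575). ABCC2 passed at -3.71 ± 0.53, but its PEO4 libraries overlapped those of SW480, and the value against the mean of both SW lines was -3.06 without SW480 replicate 2. ABCA10 was near the floor in all groups, with 1 count in PEO4 control against 17 in SW480 and 34 in SW620 (ratios 16.2 and 30, 95% exact intervals 2.54 to 677 and 5.03 to 1220). Its fitted value of -4.06 ± 0.93 moved to -6.01 without PEO4 control replicate 2 and to -3.36 with limma-voom. ABCB4 passed at -1.72 ± 0.47, and at -2.77 without PEO4 control replicate 1. Its PEO4 control libraries, at 0.285 to 1.44 CPM, overlapped those of SW620 (0.482 to 0.619 CPM) and lay below only those of SW480. ABCC12 had 0 counts in PEO4 control and 40 in SW480, which made it at least 12.7-fold higher in SW480 against a floor of 3 counts over the group. The regulators HNF4A (-6.30 ± 0.29) and PPARG (-4.38 ± 0.21) were lower in PEO4 too, among 8 lower and 5 higher of 15 tested, where 29.1% of all genes were lower and 28.9% higher. NR1H2 was higher in PEO4 (0.77 ± 0.15), while its targets ABCA1 (-2.30 ± 0.29) and ABCG1 (-2.37 ± 0.35) were lower. The part of the regulators in these differences was not tested. Of the 17 partners tested, 10 were higher and 3 lower, with PDZK1 at 4.08 ± 0.27.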

How the data were processed

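RNA was sequenced as total RNA after ribosomal depletion and DNase treatment, per the labels. Per the submitters' processing notes, Trimmomatic 0.36, STAR 2.5.2b, featureCounts of Subread 1.5.2 and DESeq2 were used with GRCh38; the annotation, strand setting and treatment of multi-mapped reads are not given in the sources used here. The deposited table holds whole-number counts for 57500 gene IDs, 485 without a symbol. The authors' deposited tables of differential expression hold a signal (each library's counts over its own size factor), a log2 fold change, and a p-value before and after adjustment. These tables served only to compare calls.

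Each comparison was fitted on the libraries of its groups with edgeR 4.0.16 in R 4.3.3 (filterByExpr, TMM, two-sided quasi-likelihood test, Benjamini-Hochberg over all genes, threshold 0.05). Values after ± are SEs of log2 fold changes unless marked SD, n = 3 libraries a group. edgeR's common biological coefficient of variation came to 0.274 in the SW comparison and 0.152 in PEO4. Levels use TMM factors over all 12 libraries, and lengths are merged exons of GENCODE 29. The test script was tested on simulated counts. Intervals and floors (3 counts) cover counting error only. The labels call the replicates biological and do not say how cultures were separated, so p-values measure the spread between these samples. An exact permutation test of 3 against 3 libraries cannot go below 0.1.

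The members, gene lists and tests were chosen with earlier results of these data known. Members named are those past the threshold in SW620 against SW480 with at least 5 CPM in the higher group or past it in PEO4 with TGF-β, ABCB1, ABCC1, ABCC2, ABCC3, ABCG2 and ABCA1 whatever their result, the 5 highest per kb in each group, and the 5 highest and 5 lowest past the threshold in PEO4 control against the SW lines. ABCA4 and ABCA12 in the SW comparison, other members and pseudogenes were added after their values were seen. Some members and list genes are counted but not reported by name here. The first rule for PEO4-like reads (genes of at least 50 CPM in PEO4 control and at most 3 counts over the other SW libraries) found 0 genes, so at least 20 CPM and at most 10 counts was used instead, chosen after seeing the data. Alternatives were DESeq2 1.42.0, limma-voom (limma 3.58.1), RLE, upper-quartile and total scaling, no count filter or a minimum of 10 counts in every library, a model of all 12 libraries, a block for the replicate number, and leaving out each library.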

Additional observations from a re-analysis of the deposited data

How the results depend on the processing

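For SW620 against SW480, DESeq2, limma-voom and RLE scaling called the same 10 members. Where 30.5% of all genes passed in the fit reported, the count was 16 with all 12 libraries in 1 model (35.9% of all genes) and ran from 9 to 19 when each library was left out (19.0% of all genes without SW480 replicate 1, 33.3% without SW620 replicate 2, which gave 19). With at least 10 counts in every library, ABCA4 and ABCC2 were no longer tested. For PEO4 with TGF-β, 3 members passed with DESeq2 (ABCA4, ABCA3 and ABCG1; 5.07% of all genes) and 6 with no filter (3.82%), and leaving out each library gave 1 to 2. For PEO4 control against the SW lines the count ran from 17, with at least 10 counts in every library (62.1% of all genes), to 29, without SW620 replicate 2 (58.2%). Departures of each library from its group mean were correlated between the groups compared. Same-numbered libraries correlated at 0.02, 0.67 and 0.57 in the SW lines and at 0.29, -0.15 and 0.48 in PEO4. Libraries of different numbers correlated from -0.63 to 0.27 in the SW lines and from -0.49 to 0.24 in PEO4. Departures cancel out over the 3 libraries of a group, so these values are not independent of the same-numbered ones. The labels do not say whether same-numbered libraries belong together, so the fit reported used no pairing. Whether they share an effect was not tested. With the replicate number as a block, 21 members passed in the SW lines (50.9% of all genes) and 5 in PEO4 with TGF-β (11%). In PEO4 control against the SW lines 27 passed (64.3%). The PEO4-like share of SW620 replicate 3 was 0.935% and 1.31% under the other added definitions.

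No member past the threshold changed direction under any alternative, but small values of other members reported did. With library totals alone, ABCC5 and ABCD4 reached -0.18 and -0.10 in PEO4 control against the SW lines. ABCC4 in PEO4 with TGF-β reached 0.02 with no filter and with all 12 libraries. When each library was left out, values in the SW lines ran from -0.24 to 1.02 for ABCC9, -0.43 to 0.05 for ABCA5 and -0.05 to 0.19 for ABCC1. In PEO4 with TGF-β they ran from -0.09 to 0.07 for ABCC1, -0.14 to 0.15 for ABCC4, -0.12 to 0.01 for ABCF3, -1.03 to 1.11 for ABCA13, -0.06 to 0.33 for ABCC11, -0.04 to 0.66 for ABCC2, -0.39 to 0.94 for ABCC3 and -0.33 to 0.93 for ABCC9. The cause was not tested. In each of the 2 comparisons of the series 13 members were too low to be tested.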

Other observations

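Pseudogenes named for ABC genes were not members, and a few were expressed. ABCA11P, an ABCA pseudogene, had means of 6.00 ± 0.71 (PEO4 control), 1.62 ± 0.418 (SW480) and 2.06 ± 0.717 CPM (SW620; SD over 3 libraries; log2 1.70 ± 0.29 in PEO4 control against the SW lines, edgeR's adjusted p = 0.000266). ABCA17P was at 4.51 ± 0.308, 2.20 ± 0.481 and 1.29 ± 0.588 CPM in the same order (1.41 ± 0.31, adjusted p = 0.00172). Neither passed in SW620 against SW480 or with TGF-β. ABCC6P1 and ABCC6P2, copies of ABCC6, summed to 151 and 126 counts over the 12 libraries against 1383 for ABCC6, so reads could be divided between them and the level of ABCC6 is uncertain.

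The libraries of some members spread widely within the PEO4 groups. ABCA2, a lysosomal lipid transporter, was at 28.8, 40.3 and 59.1 CPM in control and at 17.7, 28.5 and 33.0 CPM with TGF-β (log2 -0.75 ± 0.28, edgeR's adjusted p = 0.221). In both groups its level rose from replicate 1 to replicate 3, and each treated library lay below the control of the same number. ABCA2 passed with a block for the replicate number and with no filter. ABCA13 was at 3.41, 1.2 and 0.469 CPM in control and at 3.94, 0.676 and 0.999 CPM with TGF-β. ABCB6 exons are shared over 54.7% of their length with AC068946.2 on the same strand, which makes the level of ABCB6 uncertain.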
